A study of Mus musculus with 8 samples.

Results

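Potassium channel genes were examined in hepatic stellate cells, which store retinoid and serve as pericytes along the liver sinusoids, from mice with and without an induced deletion of the LIM homeobox gene Lhx2. The genes were chosen by name only: every gene with a symbol made of Kcn, further letters and a number, read by a probe set that the platform annotation assigns to a single gene. That gave 87 genes out of 19938 measured, from 90 probe sets. For the 3 genes with a pair of probe sets, Kcna2, Kcnh8 and Kcnma1, the probe set with the higher mean stood for the gene.

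The control group held 4 arrays (control 1 to 4) of mice that were Lhx2 floxed, on a C57BL/6J background, without Mx1Cre. The knockout group held 4 arrays (knockout 5 to 8) of Mx1Cre+ Lhx2 floxed mice on the same background. Both groups were given poly(I:C), an inducer of interferon, 3 times, and their stellate cells were sorted by retinoid autofluorescence 2 weeks later, so the floxed allele and the poly(I:C) were common to all 8 arrays. Mx1Cre is driven by an interferon-responsive promoter that is active in many cell types, so loss of Lhx2 in stellate cells, loss of Lhx2 elsewhere and presence of the transgene cannot be told apart. The sources used here give neither age nor sex. The labels do not state that each array came from its own animal, and p-values here measure only how these arrays vary, in part perhaps for technical reasons.

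Potassium channels let potassium leave the cell and thereby hold the membrane potential negative, and in contractile cells that restrains calcium entry through voltage-gated channels and so contraction. Their pore subunits fall into voltage-gated (Kv), calcium-, sodium- or pH-activated, inwardly rectifying (Kir) and tandem pore domain (K2P) channels, and accessory subunits tune them. In pericytes and vascular smooth muscle a Kir subunit encoded by Kcnj8 joins the sulfonylurea receptor encoded by Abcc9 to form a channel that opens when the ATP of the cell runs low. Stellate cells wrap the sinusoids much as pericytes wrap capillaries elsewhere.

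The deposited values are log2 expression values normalized with RMA, a method that corrects background, equalizes the arrays and summarises each probe set, and differences are compressed where a probe set is dim or close to saturation. Array medians lay between 7.42 and 7.47, and no pair of arrays was identical. The targeted gene Lhx2 had log2 levels of 12.07, 11.88, 11.94 and 11.92 in control 1 to 4 and of 11.09, 11.24, 11.35 and 11.49 in knockout 5 to 8. All 4 knockout arrays lay below all 4 control arrays, with a difference of -0.66 (SE 0.09, limma adjusted p = 0.00136). Its only probe set need not lie in the deleted part, so that level may not measure the deletion. All 10 stellate cell markers were well measured, with a mean level of 13.14 to 13.23 over the control arrays and 13.00 to 13.02 over the knockout arrays, groups that did not overlap. The hepatocyte markers, 11 of 11 of them above the level of olfactory receptor genes described next, ranged from 8.95 to 11.20 in the control and from 9.47 to 11.11 in the knockout arrays, and the 12 sinusoidal endothelial markers from 8.57 to 11.28 and from 8.56 to 9.99.

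Olfactory receptor genes, most of which are silent outside the nose, served as a guide to the level of genes not expressed, since no detection calls were used. The 1015 of them had a median log2 level of 5.46 and a 95th percentile of 6.91 in the controls. Of the 87 potassium channel genes, 39 (44.8%) had a control mean above that percentile, against 66.4% of all 19938 genes. The number was 38 in the knockout, measured against the percentile there (6.82), and those 38 were all among the 39. Each of the 4 control arrays was above the percentile for 33 genes. Probe sets differ in how strongly they bind, so these levels show which signals stand above the guide and not which channel is more abundant.

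**Figure D1:**
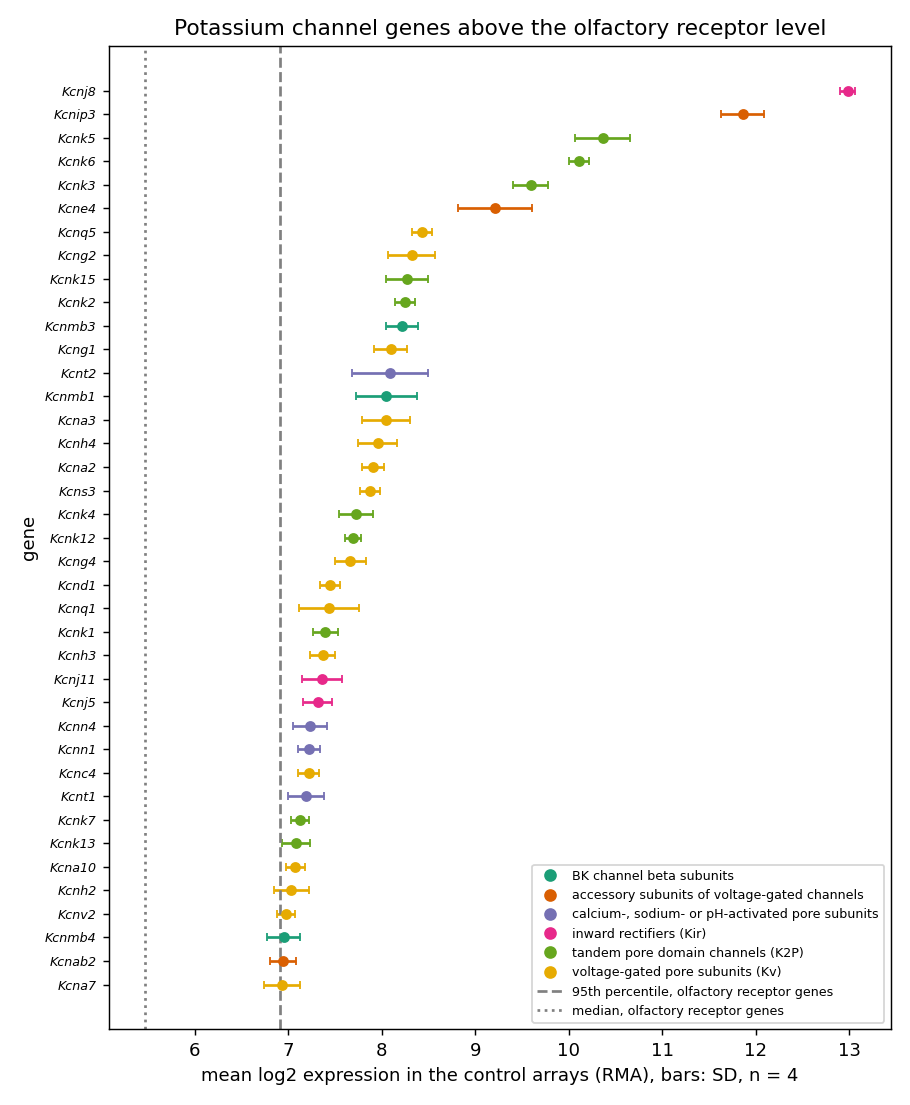
Mean log2 level in the 4 control arrays (horizontal axis, bars are SD) of the 39 potassium channel genes above the 95th percentile of olfactory receptor genes (dashed line, 6.91; dotted line, their median, 5.46), coloured by channel class. Kcnj8 stands at 12.98, 6 genes are above 9, and the lowest 4 lie under 7, close to the dashed line.

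The gene with the brightest signal was Kcnj8, at 12.98 ± 0.08 (SD, n = 4) in the controls, above 99.2% of all genes. Kcnip3, a calcium-binding accessory protein of Kv channels that also acts as a transcriptional repressor, followed at 11.86 ± 0.23 (SD, n = 4). The K2P channel genes Kcnk5, Kcnk6 and Kcnk3, which carry background potassium currents, had control means of 10.36 ± 0.30, 10.11 ± 0.10 and 9.59 ± 0.18 (SD, n = 4 each). Kcne4, a small membrane protein that inhibits several Kv channels, had a control mean of 9.21 ± 0.40 (SD, n = 4). These 6 genes were the ones above a log2 level of 9.

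By class, K2P channels were the best represented among pore subunits, with 10 of 14 genes (71.4%) above the olfactory receptor level. That share was near the 66.4% of all genes above it. Besides the 3 named, the K2P genes above it were Kcnk15, Kcnk2, Kcnk4, Kcnk12, Kcnk1, Kcnk7 and Kcnk13. Kir channels had 3 of 15 genes above it, namely Kcnj8, Kcnj11, which encodes the pore of the ATP-sensitive channel of pancreatic beta cells and heart muscle (7.36 ± 0.21, SD, n = 4), and Kcnj5, a pore subunit of G protein-gated channels (7.32 ± 0.16, SD, n = 4). Kcnj2, a strong inward rectifier of heart and vascular smooth muscle, was the lowest member of all at 5.45 ± 0.14 (SD, n = 4).

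Among Kv pore subunits 16 of 35 genes were above the olfactory receptor level, none over 9. They were Kcnq5, Kcng2, Kcng1, Kcna3, Kcnh4, Kcna2, Kcns3, Kcng4, Kcnd1, Kcnq1, Kcnh3, Kcnc4, Kcna10, Kcnh2, Kcnv2 and Kcna7. Kcnq5, a subunit of the slow M-type current, led them at 8.43 ± 0.10 (SD, n = 4), and Kcna5, a Kv channel of vascular smooth muscle, was below the guide at 6.19 ± 0.08 (SD, n = 4). Of 11 accessory subunits of Kv channels 3 were above it, Kcnip3, Kcne4 and Kcnab2.

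The large-conductance calcium-activated channel (BK) brakes contraction in smooth muscle. Its pore gene Kcnma1 stood at 6.08 ± 0.08 (SD, n = 4) in the controls by its brighter probe set and at 5.79 by the other. Of 4 BK beta subunits, 3 were above the guide, Kcnmb3, Kcnmb1 and, narrowly, Kcnmb4, while Kcnmb2 was under it at 6.72. Kcnmb1, the smooth muscle subunit, had control values of 8.14, 7.65, 8.45 and 7.97. Among the 8 calcium-, sodium- or pH-activated pore genes Kcnt2, Kcnn4, Kcnn1 and Kcnt1 were above it. Kcnn3, a small-conductance calcium-activated channel, lay just outside at 6.78 ± 0.13 (SD, n = 4). Just inside were Kcna7 (6.93), Kcnab2 (6.94), Kcnmb4 (6.95), Kcnv2 (6.98) and Kcnh2 (7.03), each within 1 SD of the guide.

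In the knockout, 5 of the 87 genes changed, in both directions. Kcnj5, Kcne4 and Kcnd1 were higher, and Kcnj8 and Kcnk5 were lower. The other 82 did not pass the test (limma, adjusted p under 0.05 over all genes). That is 5.75% of the genes, where 7.38% of all genes passed, so the share was near the background. Higher calls made up 3.76% and lower calls 3.63% of all genes. An unadjusted p under 0.05 was reached by 11 of the 87 (6 higher, 5 lower) and by 17.5% of all genes. The groups did not overlap for 5 of the 87 and for 12.7% of all genes. The median difference was -0.03 over the potassium channel genes and -0.02 over all genes, and 61 of the 87 differences were smaller than 0.1 in size. All 5 called genes were among the 39 above the olfactory receptor level in the controls.

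**Figure D2:**
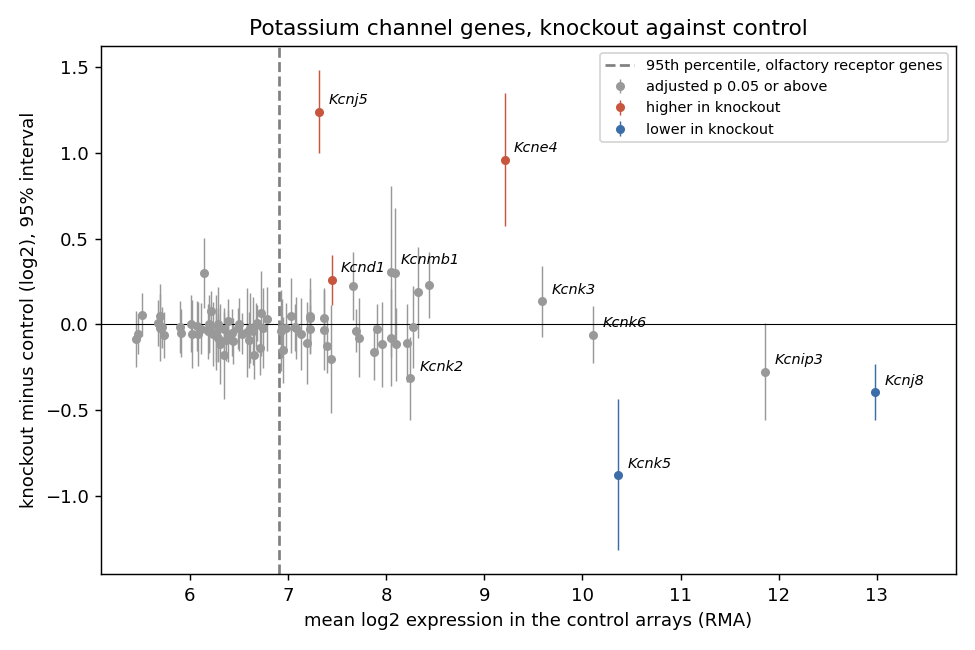
Difference knockout minus control (log2, vertical axis, bars are 95% intervals) against the control mean (log2, horizontal axis) for the 87 potassium channel genes; the dashed line is the 95th percentile of olfactory receptor genes, 6.91. Kcnj5 (1.24) and Kcne4 (0.96) stand highest and Kcnk5 (-0.88) lowest, while 61 genes lie within 0.1 of 0.

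The stretches of genome just before the starts of the genes that moved most, and of the partner gene Abcc9, are shown because these are the regions where a transcription factor could act close to a gene. Each is the 250 bases before the annotated start, 5′ to 3′ on the strand of the gene, from RefSeq on GRCm38.p6: chr6:142571615-142571864, minus strand, for Kcnj8, chr6:142702275-142702524, minus strand, for Abcc9, chr14:20181783-20182032, minus strand, for Kcnk5, chr9:32344345-32344594, minus strand, for Kcnj5, and chr1:78816661-78816910, plus strand, for Kcne4. Capitals mark TAAT read on either strand, the core of many homeodomain binding sites.
Kcnj8: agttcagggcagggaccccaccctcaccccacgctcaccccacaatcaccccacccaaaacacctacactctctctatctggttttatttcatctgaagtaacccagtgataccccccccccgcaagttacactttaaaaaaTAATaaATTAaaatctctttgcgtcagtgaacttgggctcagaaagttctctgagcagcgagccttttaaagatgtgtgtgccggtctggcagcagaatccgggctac
Abcc9: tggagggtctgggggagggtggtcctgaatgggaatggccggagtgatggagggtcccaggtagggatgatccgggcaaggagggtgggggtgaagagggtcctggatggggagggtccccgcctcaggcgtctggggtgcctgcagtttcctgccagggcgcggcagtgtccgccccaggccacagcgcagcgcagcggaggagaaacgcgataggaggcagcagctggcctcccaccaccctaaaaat
Kcnk5: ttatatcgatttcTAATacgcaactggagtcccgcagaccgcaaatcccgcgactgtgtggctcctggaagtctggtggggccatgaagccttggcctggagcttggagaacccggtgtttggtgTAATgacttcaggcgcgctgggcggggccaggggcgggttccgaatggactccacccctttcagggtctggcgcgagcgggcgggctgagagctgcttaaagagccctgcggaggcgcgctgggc
Kcnj5: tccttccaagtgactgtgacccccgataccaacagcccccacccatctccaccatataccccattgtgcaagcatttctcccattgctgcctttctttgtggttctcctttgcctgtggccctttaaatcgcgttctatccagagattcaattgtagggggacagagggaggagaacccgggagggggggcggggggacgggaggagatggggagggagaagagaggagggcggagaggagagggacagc
Kcne4: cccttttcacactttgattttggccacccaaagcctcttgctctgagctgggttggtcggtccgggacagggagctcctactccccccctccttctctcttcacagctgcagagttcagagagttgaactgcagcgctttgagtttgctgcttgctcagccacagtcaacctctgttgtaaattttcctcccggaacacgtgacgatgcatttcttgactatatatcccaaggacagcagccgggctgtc

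The core occurred 2 times each in the windows of Kcnj8 and Kcnk5, and 0 times in those of Abcc9, Kcnj5 and Kcne4. It is a short motif that 54.9% of 32851 such windows of all genes hold, and 40 of the 91 windows found for 66 of the 87 potassium channel genes (44.0%). The longer palindrome TAATTA, which reads the same on both strands and contains the core, was in 0 of those 91 windows and in 4.84% of all windows. GC content was 49.2% for Kcnj8, 66.8% for Abcc9, 62.8% for Kcnk5, 58.0% for Kcnj5 and 53.2% for Kcne4. Its median was 58.4% over the 91 windows and 52.4% over all windows, and the motif shares were not matched for it. These counts describe letters in the windows and say nothing on binding.

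Kcnj8, the pore of the ATP-sensitive channel of pericytes, was lower in the knockout. Its log2 levels were 13.00, 12.87, 13.01 and 13.05 in control 1 to 4 and 12.47, 12.51, 12.62 and 12.76 in knockout 5 to 8. All knockout arrays lay under all control arrays, with the nearest, control 2 and knockout 8, close together. The difference was -0.39 (SE 0.07, 95% interval -0.56 to -0.23, limma adjusted p = 0.0101), which left 76.1% of the control level. By exact permutation of the array labels (two-sided) p was 0.0286, the smallest that 4 arrays against 4 can give. Fewer cells with the transcript and less of it per cell cannot be told apart in bulk RNA. The level is near the top of the value range, where RMA compresses differences. Without control 1 and control 4 the difference was -0.35 and no longer passed (adjusted p = 0.119). With hepatocyte and endothelial marker scores as covariates it was -0.34 and passed barely (adjusted p = 0.0499). After quantile normalization it was smallest, at -0.31 (adjusted p = 0.0294).

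Abcc9, the receptor subunit of the same channel and the next gene along chromosome 6, had levels of 13.42, 13.48, 13.55 and 13.44 in the control arrays and of 13.24, 13.32, 13.29 and 13.37 in the knockout arrays. Its groups did not overlap either, but the difference of -0.17 (SE 0.05) did not pass (limma adjusted p = 0.0991). With a variance trend and robust fitting it did (adjusted p = 0.0254). The alternative subunits of ATP-sensitive channels, Kcnj11 and Abcc8, had differences of -0.03 (95% interval -0.27 to 0.20) and -0.05 (95% interval -0.29 to 0.18). The mean of the 10 vascular smooth muscle and pericyte markers other than Kcnj8 and Abcc9 ranged from 8.87 to 8.92 in the control arrays. In the knockout it was 8.90 in knockout 5 and 8.62 to 8.65 in knockout 6, 7 and 8. Of those 10 markers Rgs4 (-1.60) and Mcam (-1.09) were lower and Tagln (0.77) and Notch3 (0.57) higher. Over all genes 3.63% were lower and 3.76% higher. The other 6 of these markers did not pass, with Acta2 at -0.24, Cspg4 at -0.20, Actg2 at -0.08, Cnn1 at -0.04, Myocd at -0.03 and Myh11 at -0.01. Actg2 (6.21) and Myocd (5.83) were under the olfactory receptor guide in the controls. Of the 10 stellate cell markers 4 were lower as well, Rgs5 (-0.52), Hand2 (-0.48), Hgf (-0.37) and Reln (-0.26), where 3.63% of all genes were lower. The other 6 did not pass, with Ngfr at -0.23, Ecm1 at -0.11, Pdgfrb at -0.03, Colec11 at 0.02, Des at 0.07 and Lrat at 0.10. The part of the makeup of the sort in the fall of Kcnj8 was not tested.

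Kcnj5 had the largest difference of any potassium channel gene. It had levels of 7.13, 7.33, 7.51 and 7.30 in control 1 to 4 and of 8.59, 8.81, 8.47 and 8.37 in knockout 5 to 8. The groups were far apart, the lowest knockout array (knockout 8) lying well above the highest control array (control 3). It rose by 1.24 (SE 0.11, 95% interval 1.00 to 1.48, limma adjusted p = 0.000101), or 2.36-fold, from a level close to the olfactory receptor guide, where RMA compresses folds. The other subunits of G protein-gated channels were under the guide. Kcnj3 stood at 6.53 and 6.48, Kcnj6 at 5.91 and 5.86 and Kcnj9 at 6.26 and 6.21 in control and knockout. Its neighbour on chromosome 9, Kcnj1, the renal outer medullary channel, had a difference of 0.00 (95% interval -0.17 to 0.17).

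Kcne4 rose from 8.74, 9.16, 9.23 and 9.72 in control 1 to 4 to 10.32, 10.13, 10.05 and 10.19 in knockout 5 to 8. The control arrays were more spread (SD 0.40) than the knockout arrays (SD 0.11), and the groups did not overlap. The difference was 0.96 (SE 0.17, limma adjusted p = 0.00829), or 1.95-fold. Of its relatives, Kcne1, Kcne2 and Kcne3 were all under the olfactory receptor guide, with differences between -0.08 and 0.00. The Kv pore genes that Kcne4 is known to regulate include Kcnq1 and Kcna3. Kcnq1 had control levels of 7.28, 7.67, 7.06 and 7.73 and a difference of -0.20 (SE 0.14, adjusted p = 0.585), and Kcna3 a difference of -0.08 (SE 0.13, adjusted p = 0.865).

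Some markers of portal fibroblasts, the matrix-producing cells around the portal tract, were also higher in the knockout. Their mean over 8 genes was 7.69 to 7.92 in the control arrays and 8.58 to 8.74 in the knockout arrays. Of the 8, 4 rose, Cd34 (3.08), Dpt (2.28), Eln (0.81) and Mfap4 (0.39), where 3.76% of all genes rose. The other 4 did not pass, with Clec3b at 0.14, Gli1 at -0.01, Pi16 at -0.01 and Thy1 at -0.10. In the controls Pi16 (6.81) was under the olfactory receptor guide and Clec3b (6.91) barely above it, so these genes could show little. The part of such cells in the rises of Kcnj5 and Kcne4 was not tested.

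Kcnd1, a pore subunit of fast inactivating Kv currents, differed by little. It had levels of 7.49, 7.34, 7.37 and 7.58 in the controls and of 7.73, 7.63, 7.73 and 7.73 in the knockout arrays. The groups did not overlap, although control 4 and knockout 6 were close. The difference of 0.26 (SE 0.06, limma adjusted p = 0.0405) kept its call without control 4 but lost it without each of the other 7 arrays in turn, with the highest adjusted p, 0.119, without control 2. It was also lost with array weights (0.24, adjusted p = 0.0578), with a variance trend (0.26, adjusted p = 0.077) or with hepatocyte and endothelial scores as covariates (0.25, adjusted p = 0.118), where the difference was about as large.

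Kcnk5, a K2P channel that opens at alkaline pH and takes part in cell volume control, was lower in the knockout, with an overlap between the groups. It had levels of 10.53, 10.38, 9.94 and 10.61 in control 1 to 4 and of 9.20, 9.27, 9.46 and 10.01 in knockout 5 to 8. Knockout 8 was above control 3, and the other knockout arrays were below all controls. The difference was -0.88 (SE 0.20, limma adjusted p = 0.025), which left 54.4% of the control level. The call was lost without control 1 (adjusted p = 0.0664), control 2 (0.0674), control 4 (0.0701), knockout 5 (0.0724), knockout 6 (0.0808) or knockout 7 (0.0616), and with marker scores of hepatocytes and endothelium as covariates (-0.72, adjusted p = 0.0975). Without control 1 and control 4 it was -0.67 (adjusted p = 0.238). The endothelial score was 8.57, 10.79, 9.59 and 11.28 in control 1 to 4 and 8.56, 9.60, 9.32 and 9.99 in knockout 5 to 8, and its part in the fall of Kcnk5 was not tested. The adjacent K2P gene Kcnk16 had a difference of 0.06 (SE 0.11).

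**Figure D3:**
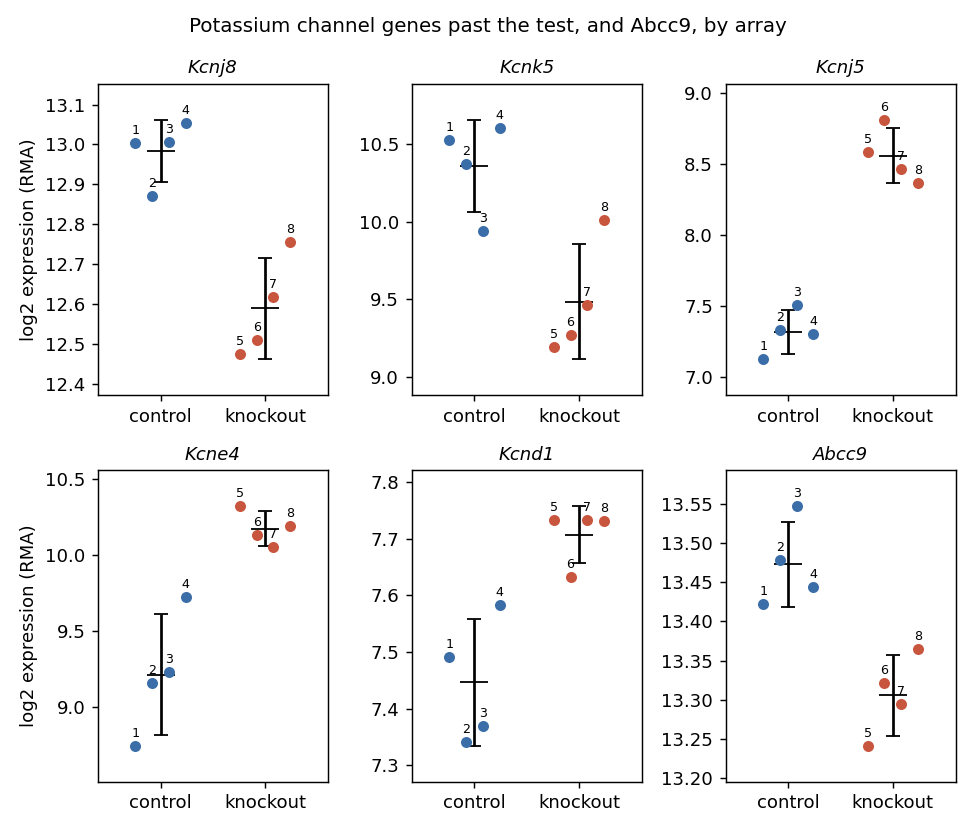
Log2 expression in each array (points, numbered by replicate; vertical axis) of the 5 potassium channel genes past the test and of Abcc9, with the group mean and SD (bars, n = 4 each). Kcnj8, Kcnj5, Kcne4, Kcnd1 and Abcc9 have groups that do not overlap, and Kcnk5 has knockout 8 (10.01) above control 3 (9.94).

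The other brightly measured channels had small differences. Kcnip3 had control values of 12.19, 11.74, 11.84 and 11.67 and knockout values of 11.48, 11.40, 11.80 and 11.67, and its difference of -0.28 (95% interval -0.56 to 0.01) did not pass (limma adjusted p = 0.301). Kcnk6, a K2P channel found in endolysosomes, had a difference of -0.06 (95% interval -0.23 to 0.11), and Kcnk3, an acid-sensitive K2P channel of vascular smooth muscle, one of 0.13 (95% interval -0.07 to 0.34). Kcnk15, a relative of Kcnk3, had a difference of -0.02 (95% interval -0.26 to 0.22).

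Kcnk2, a mechanically gated K2P channel, came next among the lower values with -0.32 (SE 0.11, adjusted p = 0.138), and it passed without knockout 7 or with array weights. Kcnq1 was the remaining one of the 3 largest falls that did not pass. The largest differences above 0 that did not pass were those of Kcnmb1 at 0.31 (SE 0.22, adjusted p = 0.604), Kcnip1, a Kv accessory protein under the olfactory receptor guide, at 0.30 (SE 0.09, adjusted p = 0.0945), and Kcnt2, a sodium-activated channel, at 0.30 (SE 0.17, adjusted p = 0.458). Kcnmb1 varied widely within the knockout, with 8.53, 7.95, 8.89 and 8.07. Kcnq5 had a difference of 0.23 (SE 0.09, adjusted p = 0.19), and passed with hepatocyte and endothelial scores as covariates. Differences of the remaining smooth muscle and pericyte channels were -0.09 for Kcnj2, -0.06 for Kcnma1, -0.02 for Kcna5, 0.03 for Kcnn3 and 0.05 for Kcnn4.

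By class, 1 of 35 Kv pore genes rose (Kcnd1), 1 of 11 Kv accessory genes rose (Kcne4), 1 of 15 Kir genes rose and 1 fell (Kcnj5 and Kcnj8), and 1 of 14 K2P genes fell (Kcnk5). None of the 8 calcium-, sodium- or pH-activated pore genes and none of the 4 BK beta subunits passed in limma, and 0 of these 12 had an unadjusted p under 0.05. Over all genes 7.38% passed and 17.5% had an unadjusted p under 0.05, so classes this small may hold few calls or none. Class medians of the difference ran from -0.12 for the BK beta subunits to 0.04 for the calcium-, sodium- or pH-activated pores.

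Lists of genes that work beside potassium channels are given next, and their counts are to be read against the 7.38% of all genes that passed. Of 17 measured voltage-gated calcium channel genes, Cacna1c was the one that changed. It encodes the pore of the L-type channel that potassium channels hold shut by keeping the membrane polarized. It had levels of 7.80, 7.92, 8.04 and 7.98 in control 1 to 4 and of 9.43, 9.28, 9.37 and 9.34 in knockout 5 to 8. The groups were far apart, and it rose by 1.42 (SE 0.06, limma adjusted p = 2.03e-06), or 2.68-fold. The list median was 0.00.

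Of 20 measured calcium store and TRP channel genes, 2 rose and 3 fell, where 3.76% of all genes rose and 3.63% fell, and the list median was -0.08. The largest of these changes was that of Piezo2, a mechanically gated cation channel, which went from 11.44, 11.38, 11.17 and 11.27 to 9.72, 10.04, 9.86 and 9.68. All its knockout arrays were far below all control arrays, and it fell by 1.49 (SE 0.09, limma adjusted p = 1.07e-05). Stim1, the calcium sensor of the endoplasmic reticulum that opens store-operated channels, fell by 0.44 (SE 0.06, adjusted p = 0.00109).

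The other changes were smaller and less firm. Itpr2 fell by 0.28 (limma adjusted p = 0.0429) and Itpr3 rose by 0.26 (0.0326), both of them calcium release channels, and Trpv2, a cation channel, rose by 0.41 (0.0261). Itpr2 lost its call without any single array except control 1 (adjusted p up to 0.122) and with either rescaling of the arrays (0.0614 after median centring, 0.0598 after quantile normalization). Itpr3 lost it on leaving out any of control 1, 2 and 3 and knockout 6, 7 and 8, with at most 0.0979. Trpv2 lost it on leaving out any of control 1 and 2 and knockout 6, 7 and 8, with at most 0.0779. Without control 1 and control 4 together, Itpr2 (0.0987), Itpr3 (0.0849) and Trpv2 (0.16) lost their calls too. Hepatocyte and endothelial scores as covariates removed those of Itpr2 (0.0712) and Trpv2 (0.0535). A variance trend with robust fitting removed that of Itpr3 (0.0743).

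Atp1b2, a beta subunit of the sodium-potassium pump, was the called gene among 13 measured pump and cotransporter genes. It had levels of 9.99, 9.40, 9.30 and 9.43 in the controls, where control 1 stood above the rest, and of 10.19, 10.25, 10.38 and 10.36 in the knockout arrays, and rose by 0.77 (SE 0.14, limma adjusted p = 0.00808). Among 14 channel partners, such as accessory subunits of Kv and BK channels, and among 9 HCN and cyclic nucleotide gated channel genes, 0 passed in limma. An unadjusted p under 0.05 was reached by 4 and 0 of them, and by 17.5% of all genes.

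**Figure D4:**
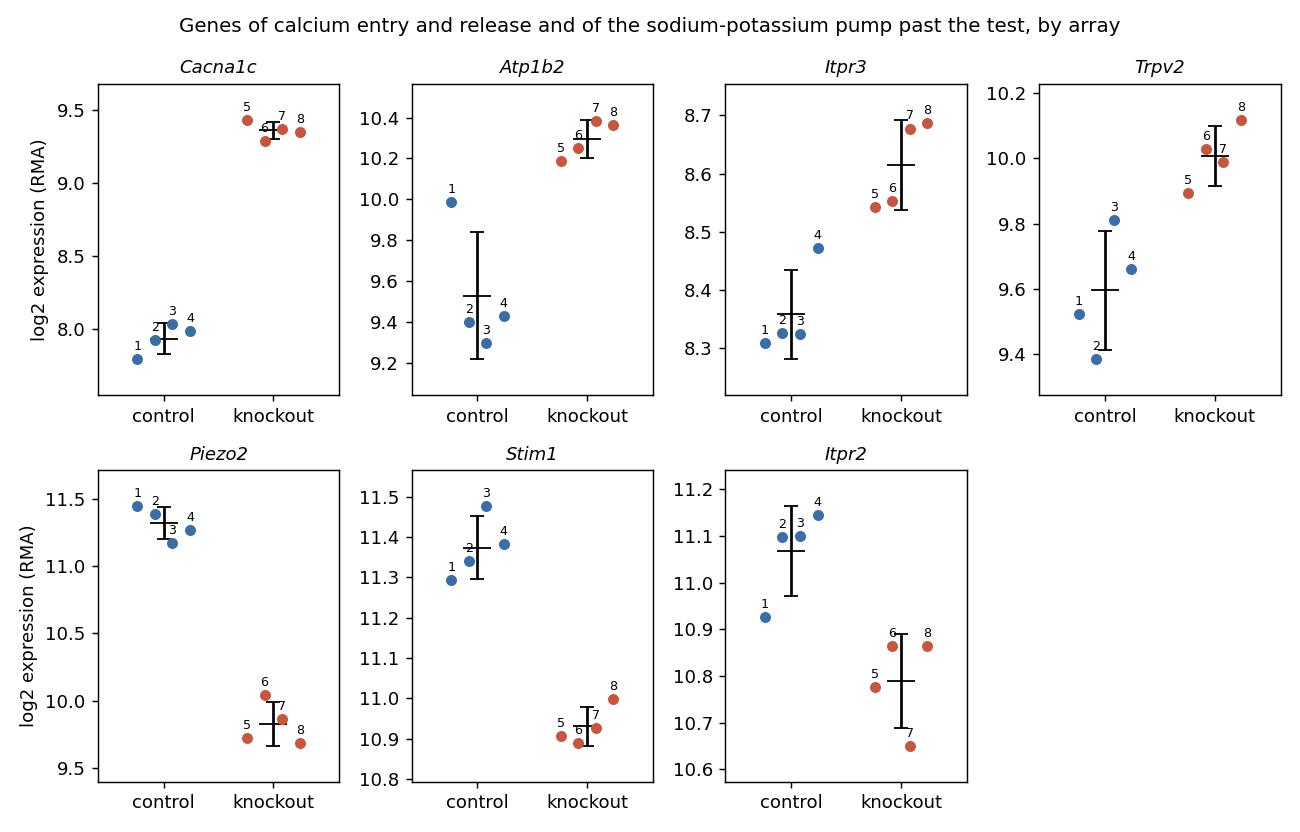
Log2 expression in each array (points, numbered by replicate; vertical axis) of the 7 genes past the test among lists of channel partners, calcium channels, calcium store and TRP channels and potassium transporters, with the group mean and SD (bars, n = 4 each). Cacna1c rose by 1.42 and Piezo2 fell by 1.49, and no gene shown has overlapping groups.

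Signs of other cell types differed between arrays of 1 group as well as between groups. Markers of Kupffer cells, 3 of 8 of them not above the olfactory receptor guide, ranged from 7.33 to 8.19 in the control and from 7.19 to 7.56 in the knockout arrays. In limma 1 of 8, Cd68, was lower (-0.61), where 3.63% of all genes were lower. An unadjusted p under 0.05 was reached by 4 of 8 and by 17.5% of all genes. Besides Cd68 these were Vsig4 (-1.24, adjusted p = 0.104), Clec4f (-0.45, adjusted p = 0.0517) and Timd4 (-0.20, adjusted p = 0.24). The rest were Cd5l at -0.40, Marco at 0.02, Adgre1 at 0.09 and Csf1r at 0.24. Markers of lymphocytes (6.12 to 6.42 in the controls), cholangiocytes (6.53 to 6.68) and Schwann cells and neurons (6.59 to 6.76) had means under the olfactory receptor guide, with 0 of 7, 0 of 5 and 0 of 7 genes past the test in limma and 0, 0 and 1 at an unadjusted p under 0.05. Hepatocyte scores overlapped between the groups, and 0 of 11 passed (1 at an unadjusted p under 0.05). Of 12 endothelial markers 1, Clec4g, was lower (-1.23), and 2 had an unadjusted p under 0.05. All 12 differences were below 0, with a median of -0.72.

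**Figure D5:**
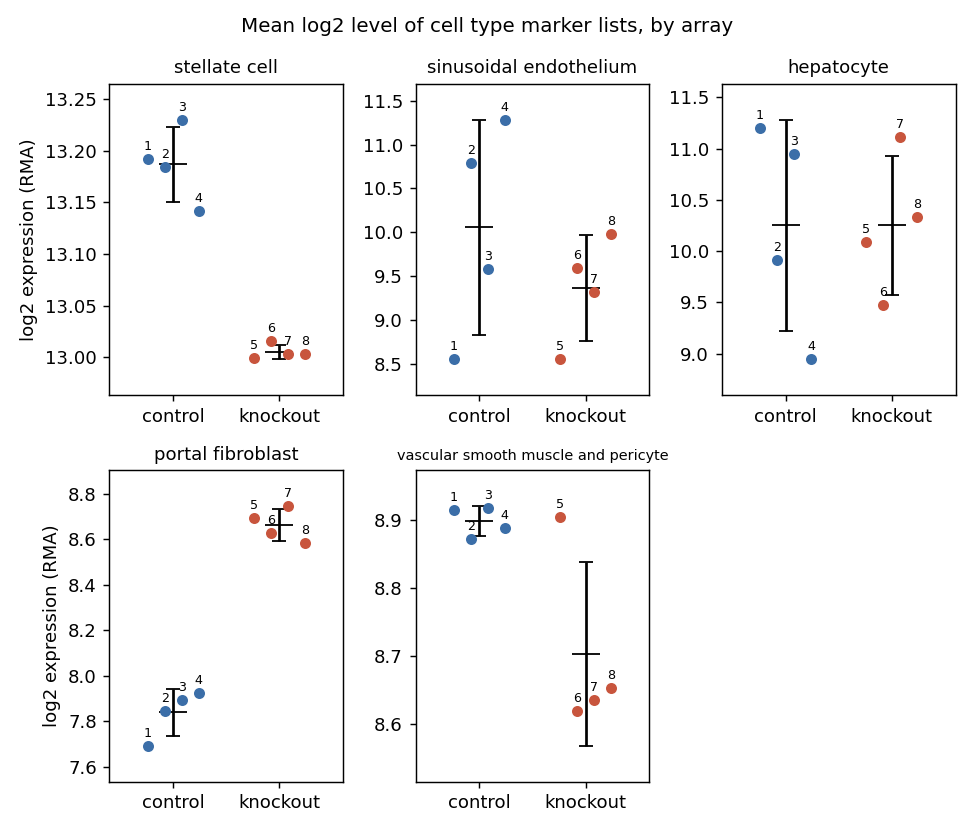
Mean log2 level of 5 cell type marker lists in each array (points, numbered by replicate; vertical axis), with the group mean and SD (bars, n = 4 each). Stellate and portal fibroblast scores do not overlap between the groups, hepatocyte and endothelial scores do, and knockout 5 (8.90) stands with the controls in the vascular smooth muscle and pericyte score.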

How the data were processed

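RNA of sorted hepatic stellate cells from 4 control and 4 knockout samples (150 ng per array) had been read on Affymetrix Mouse Gene 1.0 ST arrays. The authors deposited log2 values normalized with RMA, per the submitters' processing notes, and these were used as deposited. The sources used here name no scan batch. Of 35556 probe sets, 21789 had 1 gene symbol in the platform annotation, 1621 had several and 12146 were unnamed here. The probe set with the highest mean stood for each of 19938 genes. Entrez identifiers of 21698 probe sets were found in RefSeq, and 0 symbols changed.

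Knockout was compared with control by limma 3.58.1 (R 4.3.3), lmFit and eBayes, with Benjamini-Hochberg adjustment over the 19938 genes and a threshold of 0.05. On simulated data of 19938 genes the fit recovered 78% of 50 genes changed by 0.5 and 96% of 50 changed by 1 (log2), with 11 false calls. The simulation drew noise independently for each gene and changed far fewer genes than passed here. Real arrays share variation across genes, as in the endothelial scores, so these rates need not hold for them. The number of arrays limits the precision.

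Named were all potassium channel genes past the threshold or above the olfactory receptor level, a set of smooth muscle and pericyte channels with Abcc9 whatever their value, up to 3 genes with the largest differences not past the threshold in each direction, called genes of the partner lists, and Lhx2. Other genes named (neighbours, related subunits, markers) were chosen after their values were seen. The members and lists were chosen with earlier results of these data known. Alternatives covered scaling, filters on dim genes, the variance model, array weights, the choice of probe set, thresholds, covariates and left-out arrays.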

Additional observations from a re-analysis of the deposited data

Results flagged for a closer look

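Of 106 groups of 4 arrays checked, 3 held a value far from the others by Dixon's test, where chance flags about 1 in 20 groups (5.3 here). Itpr3 was 8.47 in control 4, with the other controls between 8.31 and 8.33. Kcnd1 was 7.63 in knockout 6, with the other knockout arrays at 7.73. Kcns3, a silent modifier subunit of Kv channels, was 7.72 in control 3, with the other controls between 7.91 and 7.94.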

How the results depend on the processing

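Under 20 alternatives each, Lhx2, Kcnj5 (1.14 to 1.31) and Kcne4 (0.80 to 1.13) kept their direction and their calls, and no result changed direction. The count of higher potassium channel genes was 2 or 3 throughout. The count of lower ones was 2 with all arrays, 1 to 2 when 1 array was left out, 0 without control 1 and control 4, 1 with hepatocyte and endothelial scores as covariates, 0 at an adjusted p under 0.01, 1 with a fold of at least 1.5 required, and 3 with array weights. Kcnj8 stayed between -0.45 and -0.36 when 1 array was left out (adjusted p up to 0.0388). It was -0.35 (adjusted p = 0.119) without control 1 and control 4. With the marker scores as covariates it was -0.34 (adjusted p = 0.0499), and after quantile normalization -0.31 (adjusted p = 0.0294). At -0.39 (adjusted p = 0.0101, 1.31-fold) it missed the 0.01 threshold and the required fold of 1.5. Over all genes 1472 passed, against 776 without control 1 and control 4, 775 at the stricter threshold and 523 with the required fold. The repertoire of 39 genes became 18 above the 99th percentile and 86 above the median of olfactory receptor genes, by construction, and was 38 to 39 when 1 control array was left out. The alternatives for Kcnj5, Kcne4, Kcnk5, Kcnd1, Kcnk2, Kcnq5, Abcc9 and the called partner genes were chosen after seeing the data. No paired analysis was possible because the groups share no replicate number. Levels near the olfactory receptor guide leave little signal over background.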
